A study of Mus musculus with 9 samples.

Results

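Mitosis is run by a small set of kinases, motors, checkpoint proteins and scaffolds, and 50 genes that encode them were followed across 3 populations of Ly6Chi CD115+ cells from mouse bone marrow (BM). The genes were given as a list of symbols, and each was read from the probe set of highest mean signal among those that the platform annotation gives to exactly 1 symbol. Of the 50 genes, 49 had such a probe set, of 19937 genes in all, and *Ccnb1* had none. The values are log2 intensities of microarray probe sets, so that a difference of 1.00 is a 2-fold change.

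Cells were sorted by flow cytometry from untreated C57Bl/6 mice of 8 weeks, at steady state, within a gate negative for lineage markers, MHCII and cKit. All 3 populations were Ly6Chi CD115+, where CD115 is the receptor CSF1R. R1 cells were Flt3-CD11c-, R2 cells were Flt3+CD11c-, and R3 cells were Flt3+CD11c+. The study treats R1 and R2 as monocytes and R3 as precursors of dendritic cells (pre-DCs). Each population was measured on 3 arrays. By their titles, the arrays fall on 3 dates, each with 1 array per population, and arrays of 1 date carry the same replicate number in this text. Nothing in the labels or methods says what a date marks or that arrays of a population are separate mice. The p-values then reflect array-to-array spread alone, part of which may be technical.

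The RNA of the sort markers set R3 apart as labelled, but that of *Flt3* did not separate R1 from R2 on every array. *Flt3*, the receptor of the DC growth factor Flt3L, was at 6.74, 7.78 and 7.17 (log2 intensity) on the R1 arrays, 7.70, 8.02 and 8.01 on the R2 arrays, and 10.99, 11.09 and 11.03 on the R3 arrays. Its arrays in R1 and R2 overlapped. *Itgax*, which encodes CD11c, had a mean of 5.21 ± 0.13 (SD, n = 3) in R1, 5.84 ± 0.47 in R2 and 10.78 ± 0.08 in R3, and *Csf1r* had a mean between 10.74 and 11.25 in every population. The member genes gave bright signals, with means over the 9 arrays from 8.36 to 11.60 against a median of 6.21 for all genes. Signals of different probe sets were not compared as levels.

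Most mitosis genes are transcribed in cells that are about to divide and are kept silent in resting cells. In resting cells the DREAM complex holds their promoters, and in cycling cells B-MYB and FOXM1 take its place. Both act at a short element called the cell cycle genes homology region (CHR), which often lies downstream of CCAAT boxes bound by the factor NF-Y. In BM, early myeloid progenitors divide often, whereas mature Ly6C+ monocytes are known as cells that divide little.

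Because the genes share a mode of control, their promoters were searched for these elements. RefSeq windows on GRCm38.p6, reaching from 250 bases before to 50 bases after the start of a gene, were held for 45 of the 50 genes, in 48 windows. There was no window in the table for *Ccna2*, *Aurkb*, *Kif20a*, *Tpx2* and *Dlgap5*. The CHR letters TTTGAA, or TTCAAA on the other strand, were in 39 of the 48 windows (81.2%), against 17.9% of all 32851 windows in the table. The NF-Y box, CCAAT or ATTGG on the other strand, was in 33 (68.8%), against 37.4% of all windows, and both elements were in 30 (62.5%), against 6.95%. Rarer forms of the CHR read the same on both strands: TTCGAA was in 6.25% of the member windows and 1.56% of all, and TTTAAA in 20.8% and 13.2%. Of 73 windows of other mitosis genes, chosen as a separate list, 41.1% held TTTGAA or TTCAAA, and of 37 windows of S phase genes 10.8% did. The NF-Y box was in 71.2% of the windows of the other mitosis genes and 56.8% of those of the S phase genes. The elements were counted separately and may share bases at their ends. A match is a description of letters and shows no binding.

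**Figure D1:**
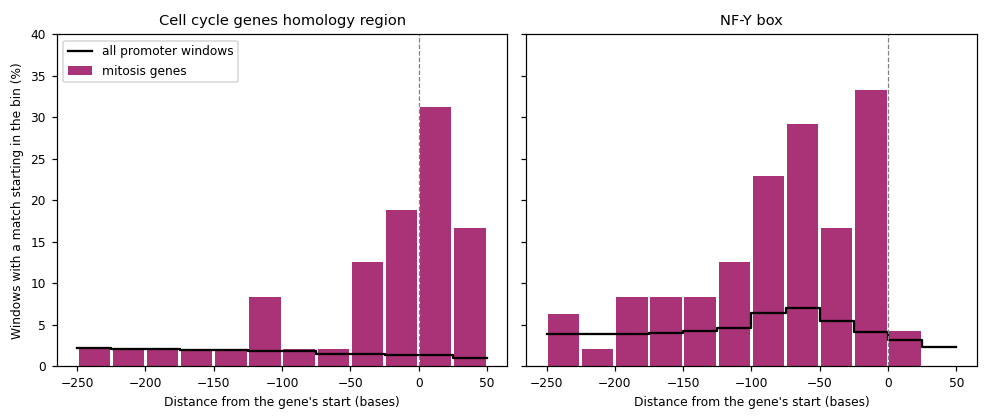
Share of promoter windows (%) with a match that starts in each 25-base bin, against the distance from the start of the gene in bases. Bars are the 48 windows of the mitosis genes and the line is all 32851 windows, for the CHR (left) and the NF-Y box (right). Among the mitosis windows the CHR is most frequent in the first 25 bases after the start, at 31.2%, where 1.31% of all windows hold it, and the NF-Y box in the 25 bases before the start, at 33.3%, where 4.05% of all do. The line for all windows is highest in other bins.

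The sequences below show both arrangements. *Mki67*, *Cdc20* and *Ube2c* carry the CHR before the start and are shown from 150 bases before the start to the last base before it. Each is written 5′ to 3′ on the strand of the gene, with the CHR (TTTGAA or TTCAAA) and the NF-Y box (CCAAT or ATTGG) in capitals. The pair of CHR letters in *Mki67*, at positions -116 and -98 from the start, lie just downstream of a CCAAT box, and in *Cdc20* and *Ube2c* the element is at -18 and -29.
Mki67, chr7:135716380-135716529, minus strand: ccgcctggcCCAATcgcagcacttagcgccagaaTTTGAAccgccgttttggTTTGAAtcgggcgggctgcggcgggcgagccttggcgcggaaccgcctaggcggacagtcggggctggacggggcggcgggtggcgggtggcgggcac
Cdc20, chr4:118437344-118437493, minus strand: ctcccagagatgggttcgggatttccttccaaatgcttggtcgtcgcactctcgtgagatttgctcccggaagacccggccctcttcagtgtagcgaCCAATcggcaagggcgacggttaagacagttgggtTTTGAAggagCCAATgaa
Ube2c, chr2:164769779-164769928, plus strand: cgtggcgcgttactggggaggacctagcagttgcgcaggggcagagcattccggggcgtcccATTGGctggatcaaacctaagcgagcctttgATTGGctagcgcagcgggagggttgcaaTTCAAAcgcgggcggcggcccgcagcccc

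*Prc1*, *Kif23*, *Aspm* and *Cenpf* are 4 of the genes that differed most between populations. The CHR was about as frequent in such genes as in all members. Of 12 windows of the genes called below as higher in both R3 and R2 than in R1, 10 (83.3%) held it, against 81.2% of all member windows. Their CHR lies at the start shown, at position -5 in *Prc1*, 3 in *Kif23* and *Cenpf*, and 7 in *Aspm*. Position 1 is the first base after the start, and there is no position 0. A second window of *Prc1*, from another start, has the CHR at -30. For the 4 genes, the 15 bases on each side of the start are shown, with the same capitals.
Prc1, chr7:80294436-80294465, plus strand: tctggctcggTTTGAAttccgcggggtcca
Kif23, chr9:61946785-61946814, minus strand: ggccgctgATTGGcctgTTTGAAatgcgcc
Aspm, chr1:139454758-139454787, plus strand: cccATTGGtggaggcgcgataTTTGAAccg
Cenpf, chr1:189688072-189688101, minus strand: gcggcggcggcgggcagTTTGAAtcgctcg

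The mitosis genes stood lowest in R1. All 49 had their lowest mean in R1, and 43 had every R1 array below all 6 arrays of R2 and R3, as 3.18% of all genes did. The highest mean was in R3 for 38 genes and in R2 for 11. On a log2 scale from R1 to R3, the R2 mean lay a median of 84.4% of the way, from 54.5% for *Ccnb2* to 166% for *Nuf2*. In bulk samples of sorted cells, a smaller share of dividing cells and less of these RNAs per dividing cell cannot be told apart.

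**Figure D2:**
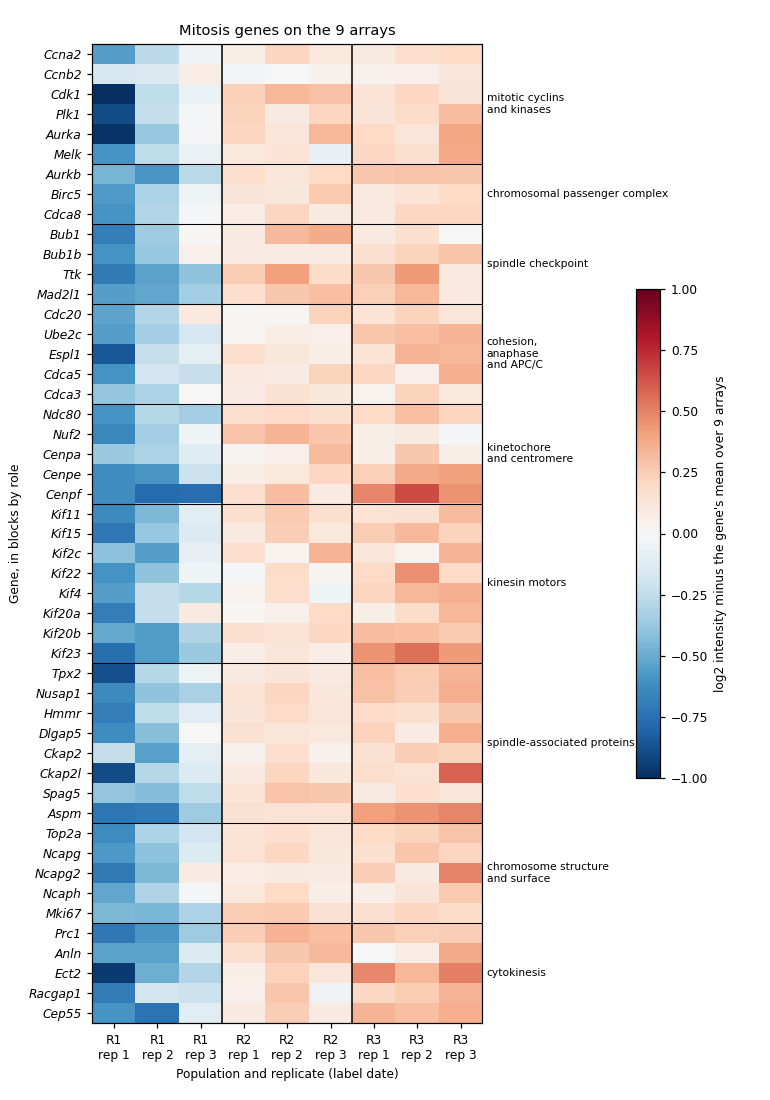
Log2 intensity minus the mean of the gene over the 9 arrays, for the 49 mitosis genes (rows, in blocks by role) on each array (columns, by population and replicate), with blue below the mean and red above it. The R1 columns are mostly blue, deepest on replicate 1 (median deviation -0.60) and palest on replicate 3 (-0.12), and the medians of the R2 and R3 columns lie between 0.11 and 0.29.

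Between R3 and R1, 39 of the 49 genes were higher in R3 and 0 were lower, at an adjusted p under 0.05 from limma over all 19937 genes. The background of calls over the whole table was 6.49% higher and 7.02% lower. The log2 fold changes ran from 0.15 for *Ccnb2* to 1.24 for *Cenpf*, with a median of 0.61 (1.52-fold) against -0.02 for all genes, and 48 had an unadjusted p under 0.05, as did 24.1% of all genes. Only 4 genes reached 2-fold: *Cenpf*, *Aspm*, *Kif23* and *Ect2*. All R3 arrays lay above all R1 arrays for 46 of the 49, and for 11.6% of all genes. The genes not called were *Ccnb2*, *Cdk1*, *Plk1*, *Aurka*, *Bub1*, *Cdc20*, *Cdca3*, *Nuf2*, *Kif20a* and *Ncapg2*. With the label date as a block, 42 were called, with *Aurka* (adjusted p = 0.0337), *Kif20a* (0.0391) and *Ncapg2* (0.0289) added. The count fell to 25 without R3 replicate 1 or R1 replicate 2, to 23 without R3 replicate 3, to 18 without the 3 arrays of replicate 1 and to 13 without those of replicate 2. It was 9 with the unpaired test that the study's methods name, after adjustment, and 21 with these 2 populations alone in the fit. Without some 1 array, 18 of the 39 lost their call (adjusted p from 0.0505 to 0.137), among them *Ccna2*, *Bub1b*, *Cdca8* and *Ncaph* without any array but R1 replicate 3. The others were *Melk*, *Birc5*, *Espl1*, *Cdca5*, *Cenpa*, *Kif22*, *Kif2c*, *Tpx2*, *Hmmr*, *Dlgap5*, *Ckap2*, *Ckap2l*, *Anln* and *Racgap1*. Under all 24 alternatives, *Aurkb*, *Cenpf*, *Kif20b*, *Kif23*, *Nusap1*, *Aspm*, *Mki67* and *Prc1* were called.

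Between R2 and R1, 12 genes were higher in R2 and 0 lower, where 0.211% of all genes were called higher and 0.181% lower. They were *Aurkb*, *Ttk*, *Mad2l1*, *Ndc80*, *Cenpf*, *Kif20b*, *Kif23*, *Nusap1*, *Spag5*, *Aspm*, *Mki67* and *Prc1*, and 42 genes of the whole table were called higher in R2. The median log2 fold change over the 49 genes was 0.53 (1.44-fold), all 49 were positive, from 0.08 for *Ccnb2* to 0.91 for *Cenpf*, and 47 had an unadjusted p under 0.05, as did 10.7% of all genes. For 44 of the 49, all R2 arrays lay above all R1 arrays, as for 5.44% of all genes. With the label date as a block, *Cenpf* (adjusted p = 0.0388 from limma) and *Prc1* (0.0418) were called and the other 10 had adjusted p-values from 0.0549 for *Aspm* and *Mki67* to 0.0613 for *Ndc80*, *Kif23* and *Nusap1*. The count of 12 rested on single arrays. Dropping any 1 of the 3 R2 arrays left 0, as did dropping R1 replicate 2. The count was 3 when R3 replicate 1 was dropped, 5 for R1 replicate 1 and 26 for R1 replicate 3. It was also 0 without the arrays of any date, with the methods' unpaired test after adjustment, and with only the 6 arrays of R2 and R1. In each of these cases all 49 differences remained positive.

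Between R3 and R2, the differences of the same genes were small in size. *Kif23* and *Cenpf* were higher in R3, 0 genes were lower, and 5 had an unadjusted p under 0.05, against 19.4% of all genes. The background of calls here was 4.85% higher and 4.69% lower. The median log2 fold change was 0.08, 38 genes were positive and 11 negative, and the range ran from -0.26 for *Nuf2* to 0.39 for *Kif23*. The 95% intervals of all 49 lay between -0.59 and 0.64. These intervals and calls use an error shared over the 3 populations. The median SD of the members was 0.25 in R1, 0.07 in R2 and 0.06 in R3. All R3 arrays lay above all R2 arrays for 18 genes, and for 12.6% of all genes, and below them for *Cdk1* and *Nuf2*, and for 12.2% of all genes. The count of 2 was 0 without R2 replicate 1 or 3, without R1 replicate 2 and without any 1 of the R3 arrays, 1 without R2 replicate 2, and 0 without the arrays of any date. The methods' test, which takes its error from R3 and R2 alone, gave 4 genes higher and 1 lower (*Nuf2*) after adjustment. Without adjustment it gave 14 higher and 2 lower. These 3 comparisons share arrays, so their values stand side by side and are not independent of each other.

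**Figure D3:**
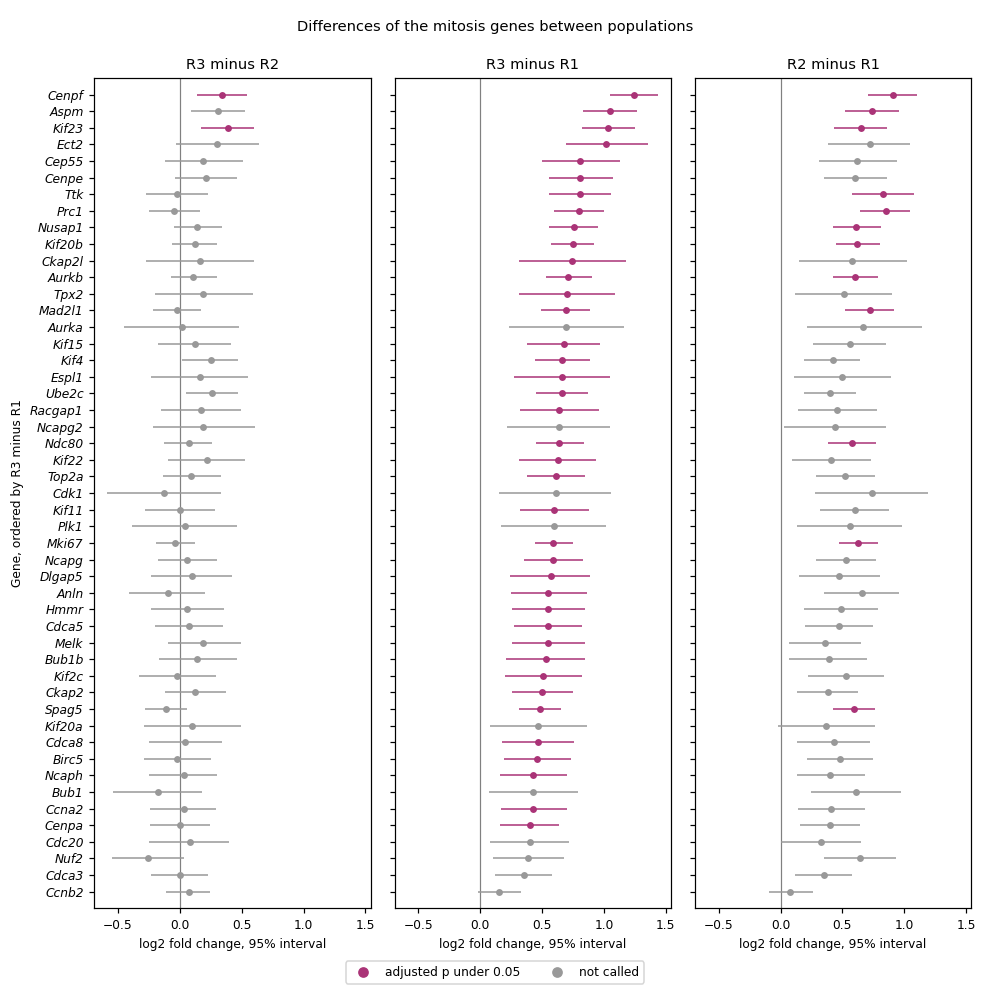
Log2 fold change of each of the 49 mitosis genes (points) with its 95% interval from limma (bars) for R3 minus R2, R3 minus R1 and R2 minus R1, ordered by R3 minus R1. Magenta marks an adjusted p under 0.05, which 2, 39 and 12 genes reached. Most intervals of R3 minus R2 cross 0, and most of the other comparisons lie to its right.

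The spread between arrays was not the same in every population. The median SD of the members was 0.25 in R1, against 0.15 for 4285 genes of the same range of mean signal, and 0.07 in R2 and 0.06 in R3, against 0.08 and 0.11. It was highest for *Cdk1*, at 0.50 in R1. The median of the 49 log2 intensities was 9.19, 9.40 and 9.73 on R1 replicates 1, 2 and 3, and lay from 10.04 to 10.07 on the R2 arrays and from 9.99 to 10.16 on the R3 arrays. R1 replicate 1 was the lowest of the 9 arrays for 40 genes and R1 replicate 2 for 9. R1 replicate 3 was the highest R1 array for 44. Leaving out R1 replicate 1 lowered the median log2 fold change to 0.48 for R3 over R1 and to 0.40 for R2 over R1, and leaving out R1 replicate 3 raised them to 0.71 and 0.66.

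Within dates, R1 was the lowest population for nearly all genes. R3 exceeded R1 for 49, 49 and 48 genes on the dates of replicates 1, 2 and 3, with median differences of 0.80, 0.58 and 0.42 in log2 intensity. R2 exceeded R1 for 49, 49 and 46 genes, with medians of 0.72, 0.55 and 0.27. R3 exceeded R2 for 35, 30 and 37 genes, with medians of 0.07, 0.06 and 0.13. The dates themselves were compared in a limma fit of population and date. Members called were 0 for replicate 2 against 1, 3 against 1 and 3 against 2, as were 0% of all genes in each, and 0, 8 and 2 members had an unadjusted p under 0.05. The median difference of the members was 0.11, 0.19 and 0.08. It lay mainly in R1, where replicate 3 exceeded replicate 1 by a median of 0.47, with 48 genes positive, while in R2 and R3 it did so by 0.01 and 0.07.

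**Figure D4:**
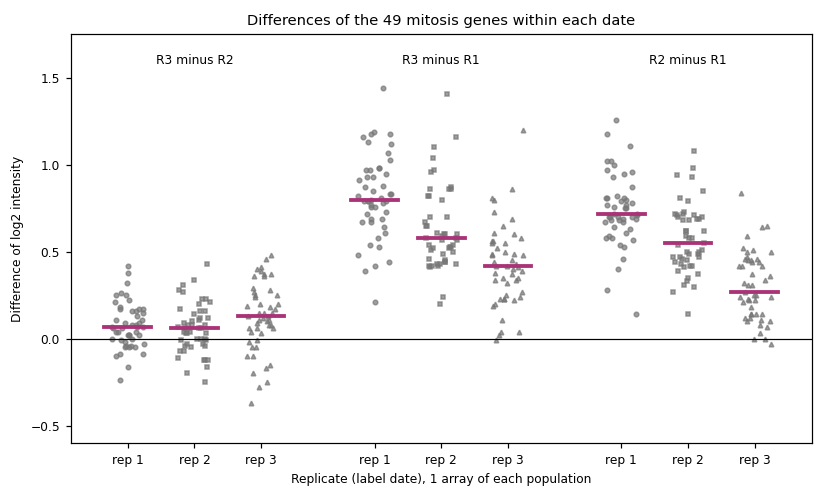
Difference of log2 intensity between 2 populations on 1 date, for the 49 mitosis genes (points) with the median (bar), for R3 minus R2, R3 minus R1 and R2 minus R1 on the dates of replicates 1, 2 and 3. Differences from R1 lie above 0 on every date for nearly all genes, with medians from 0.80 down to 0.27, and those between R3 and R2 lie around 0, with medians from 0.06 to 0.13.

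The mitotic cyclins and kinases drive entry into mitosis. Of 6 measured, 2 rose in R3 over R1, 0 were called between R2 and R1, where 5 had an unadjusted p under 0.05, and 0 between R3 and R2, where 0 did. *Ccna2*, the cyclin of S phase and mitotic entry, was at 11.05, 11.34 and 11.57 in R1, 11.67, 11.82 and 11.71 in R2, and 11.69, 11.78 and 11.80 in R3. No R1 array reached R2 or R3, and *Ccna2* rose by 0.43 ± 0.12 (log2 fold change and standard error, here and below) in R3 over R1 (adjusted p = 0.0408 from limma, and 0.0591 to 0.111 without any 1 array other than R1 replicate 3). *Melk*, a kinase of dividing cells, rose by 0.55 in R3 over R1. *Cdk1*, the kinase that drives mitotic entry, was at 9.36, 10.12 and 10.31 in R1, 10.61, 10.71 and 10.67 in R2, and 10.51, 10.58 and 10.50 in R3. Every R1 array lay below all R2 and R3 arrays, but replicate 1 stood well below the other R1 arrays, and the differences of 0.61 ± 0.20 for R3 over R1 and 0.74 ± 0.20 for R2 over R1 were not called (adjusted p = 0.0898 and 0.200). *Plk1*, the polo kinase of the spindle poles, was at 9.62, 10.28 and 10.50 in R1, 10.74, 10.61 and 10.73 in R2, and 10.65, 10.70 and 10.83 in R3. *Aurka*, the kinase that matures spindle poles, was at 8.86, 9.46 and 9.82 in R1, 10.05, 9.96 and 10.17 in R2, and 10.04, 9.96 and 10.23 in R3. Both had the same shape as *Cdk1*, with no overlap of R1 with the others, and neither was called (*Plk1* 0.60, adjusted p = 0.0728; *Aurka* 0.69, adjusted p = 0.0587 in R3 over R1). *Ccnb2*, a B-type cyclin that activates CDK1, had the smallest differences of the 49 from R1, with means of 11.29, 11.37 and 11.44 in R1, R2 and R3.

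The chromosomal passenger complex corrects the attachment of chromosomes to the spindle, and its 3 genes among the 50 rose in R3 over R1. *Aurkb*, its kinase, was at 10.40, 10.28 and 10.59 in R1, 11.04, 10.98 and 11.06 in R2, and 11.13, 11.15 and 11.13 in R3. The populations did not overlap, and *Aurkb* rose by 0.71 ± 0.08 in R3 over R1 (adjusted p = 0.000396 from limma) and by 0.60 ± 0.08 in R2 over R1 (adjusted p = 0.0281, 0.0594 with the date as a block). *Birc5*, which encodes survivin, was at 10.82, 11.07 and 11.34 in R1, 11.52, 11.50 and 11.65 in R2, and 11.49, 11.53 and 11.59 in R3. Its R2 and R3 arrays overlapped above all R1 arrays, with a rise of 0.46 ± 0.12 in R3 over R1 (adjusted p = 0.0325) and a difference of 0.48 ± 0.12 between R2 and R1 that was not called (adjusted p = 0.163). *Cdca8*, the borealin subunit, rose by 0.47 in R3 over R1 (adjusted p = 0.0427). Leaving out any 1 array ended the call of *Cdca8* (adjusted p from 0.0648 to 0.119) except for R1 replicate 3, and that of *Birc5* (from 0.0545 to 0.0948) except for R1 replicate 3 and R2 replicate 3.

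Spindle checkpoint genes hold back anaphase until all chromosomes are attached. Of the 4, 3 rose in R3 over R1 and 2 in R2 over R1. *Ttk*, the kinase that starts the checkpoint signal, was at 8.15, 8.32 and 8.45 in R1, 9.11, 9.26 and 9.04 in R2, and 9.12, 9.28 and 8.95 in R3. It rose by 0.81 ± 0.11 in R3 over R1 (adjusted p = 0.00115 from limma) and by 0.83 ± 0.11 in R2 over R1 (adjusted p = 0.0262, 0.0580 with the date as a block), while R2 and R3 overlapped. *Mad2l1*, which encodes the MAD2 inhibitor of the anaphase-promoting complex, was at 9.68, 9.71 and 9.89 in R1, 10.40, 10.50 and 10.53 in R2, and 10.47, 10.56 and 10.33 in R3. Its rises were 0.69 ± 0.09 in R3 over R1 and 0.72 ± 0.09 in R2 over R1 (adjusted p = 0.000736 and 0.0236, the latter 0.0588 with the date as a block). *Bub1b*, which encodes the checkpoint protein BUBR1, was at 9.99, 10.21 and 10.64 in R1, 10.67 on all 3 R2 arrays, and 10.75, 10.81 and 10.87 in R3. The R2 arrays hold exactly the same deposited value and so add no spread to the error of this gene. It rose by 0.53 in R3 over R1 (adjusted p = 0.0349, and 0.0604 to 0.108 without any 1 array other than R1 replicate 3). *Bub1*, a kinase of the same checkpoint, had means of 9.37, 9.98 and 9.80 in R1, R2 and R3, and was not called in any comparison.

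Genes of cohesion, anaphase and the anaphase-promoting complex (APC/C) act when sister chromatids part. Of the 5, 3 rose in R3 over R1, and 0 were called in R2 over R1, where all 5 had an unadjusted p under 0.05. *Ube2c*, the ubiquitin-conjugating enzyme of the APC/C, rose by 0.66 ± 0.09 in R3 over R1 (adjusted p = 0.00134 from limma), *Espl1*, which encodes separase, by 0.66 ± 0.17 (0.0342, and 0.0520 to 0.107 in 7 of the fits without 1 array), and *Cdca5*, which encodes the cohesin protector sororin, by 0.55 ± 0.12 (0.0160). *Cdc20*, the activator of the APC/C, was at 9.54, 9.78 and 10.17 in R1, 10.08, 10.09 and 10.29 in R2, and 10.21, 10.29 and 10.19 in R3. Its highest R1 array reached into R2, and neither 0.40 ± 0.14 for R3 over R1 nor 0.33 ± 0.14 for R2 over R1 was called (adjusted p = 0.109 and 0.465). *Cdca3*, which takes part in mitotic entry, had a difference of 0.35 in both comparisons with R1.

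Kinetochore and centromere genes join chromosomes to the spindle, and 4 of the 5 rose in R3 over R1. *Cenpf* (probe set 10360985), a large kinetochore protein whose level peaks late in the cell cycle, was at 8.88, 8.73 and 8.74 in R1, 9.68, 9.81 and 9.58 in R2, and 9.99, 10.15 and 9.95 in R3. Its populations were fully separated. *Cenpf* had the largest difference of the 49 from R1, with 1.24 ± 0.09 for R3 (2.37-fold, adjusted p = 1.8e-05 from limma) and 0.91 ± 0.09 for R2 (1.87-fold, adjusted p = 0.0153), and it rose by 0.34 ± 0.09 in R3 over R2 (adjusted p = 0.0405, a call lost under 13 of the 24 alternatives, with 0.0535 to 0.205 without 1 array or date, 0.0814 with quantile normalization, 0.0634 with these 2 populations alone in the fit and 0.173 with the methods' test after adjustment). *Cenpe*, a kinesin of the kinetochore, was at 9.13, 9.17 and 9.54 in R1, 9.82, 9.86 and 9.96 in R2, and 9.99, 10.13 and 10.16 in R3, a rise of 0.81 ± 0.11 in R3 over R1 (adjusted p = 0.00119). *Ndc80*, the core of the microtubule-binding complex, was at 9.32, 9.63 and 9.57 in R1, 10.07, 10.10 and 10.07 in R2, and 10.11, 10.21 and 10.13 in R3. It rose by 0.64 ± 0.09 in R3 over R1 and by 0.58 ± 0.09 in R2 over R1 (adjusted p = 0.00100 and 0.0390, the latter 0.0613 with the date as a block). *Nuf2*, the partner of NDC80, had another order, with means of 9.25, 9.89 and 9.64 in R1, R2 and R3. Its difference of -0.26 ± 0.13 between R3 and R2 was not called (adjusted p = 0.335), although no R3 array reached R2. The fit shares its error over the 3 populations, and the SD of *Nuf2* was 0.30 in R1, 0.04 in R2 and 0.05 in R3. With the methods' unpaired test of R3 and R2, *Nuf2* was called lower in R3 (adjusted p = 0.0454). *Cenpa*, the histone variant of the centromere, rose by 0.40 in R3 over R1 (adjusted p = 0.0342).

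Kinesin motors move chromosomes and slide spindle fibres, and 7 of the 8 rose in R3 over R1. *Kif23* (probe set 10594251), the motor of the central spindle at cytokinesis, was at 10.17, 10.36 and 10.55 in R1, 10.99, 11.04 and 10.99 in R2, and 11.37, 11.47 and 11.35 in R3. The 3 populations did not overlap, and *Kif23* rose by 1.03 ± 0.09 in R3 over R1 (adjusted p = 9.8e-05 from limma), by 0.65 ± 0.09 in R2 over R1 (adjusted p = 0.0354, 0.0613 with the date as a block) and by 0.39 ± 0.09 in R3 over R2 (adjusted p = 0.0323, and 0.0532 to 0.315 where an array or date left out ended the call). *Kif20b*, a kinesin of late mitosis, was at 9.14, 9.09 and 9.35 in R1, 9.81, 9.79 and 9.86 in R2, and 9.96, 9.95 and 9.91 in R3, with rises of 0.75 ± 0.08 and 0.62 ± 0.08 over R1 (adjusted p = 0.000236 for R3 and 0.0236 for R2, the latter 0.0580 with the date as a block). *Kif11*, the motor that pushes spindle poles apart, was at 10.36, 10.55 and 10.88 in R1, 11.16, 11.26 and 11.16 in R2, and 11.14, 11.15 and 11.31 in R3. R2 and R3 were level, with a difference of 0.00 (95% interval -0.28 to 0.28), and the rise in R3 over R1 was 0.60 ± 0.12 (adjusted p = 0.0111). *Kif15*, *Kif4*, *Kif22* and *Kif2c* rose by 0.68, 0.66, 0.63 and 0.51 in R3 over R1. *Kif20a*, a motor of cytokinesis, had a difference of 0.47 that was not called (adjusted p = 0.119, 0.0391 with the date as a block), with R1 replicate 3 at 9.48 inside the range of R3.

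Spindle-associated proteins build and focus the spindle, and all 8 rose in R3 over R1, with 3 called in R2 over R1. *Aspm* (probe set 10350392), a protein of the spindle poles, was at 8.33, 8.34 and 8.69 in R1, 9.20, 9.19 and 9.19 in R2, and 9.46, 9.50 and 9.54 in R3. The populations did not overlap, with rises of 1.05 ± 0.10 in R3 over R1 (adjusted p = 0.000105 from limma) and 0.74 ± 0.10 in R2 over R1 (adjusted p = 0.0259, 0.0549 with the date as a block). The difference of 0.31 ± 0.10 between R3 and R2 was not called (adjusted p = 0.0950). *Nusap1*, which bundles microtubules near chromosomes, was at 10.21, 10.44 and 10.52 in R1, 10.98, 11.06 and 10.96 in R2, and 11.14, 11.09 and 11.21 in R3, with rises of 0.76 ± 0.09 and 0.61 ± 0.09 over R1 (adjusted p = 0.000407 for R3 and 0.0323 for R2, the latter 0.0613 with the date as a block). *Tpx2*, the activator of Aurora A, was at 8.67, 9.26 and 9.50 in R1, 9.64, 9.68 and 9.64 in R2, and 9.85, 9.80 and 9.89 in R3. It rose by 0.70 ± 0.17 in R3 over R1 (adjusted p = 0.0253), a call lost without R1 replicate 2 or any 1 R3 array (0.0505 to 0.0741) and without any date. *Spag5*, which encodes astrin, rose by 0.48 in R3 and 0.59 in R2 over R1 (adjusted p = 0.00226 and 0.0236, the latter 0.0580 with the date as a block). *Ckap2l*, *Dlgap5*, *Hmmr* and *Ckap2* rose by 0.74, 0.57, 0.55 and 0.50 in R3 over R1.

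Of 5 genes of chromosome structure and surface, 4 rose in R3 over R1. *Mki67* (probe set 10568714), which encodes the proliferation antigen Ki-67 of the chromosome surface, was at 11.03, 11.02 and 11.17 in R1, 11.73, 11.74 and 11.63 in R2, and 11.64, 11.69 and 11.66 in R3. Every R2 and R3 array lay above every R1 array, and *Mki67* rose by 0.59 ± 0.07 in R3 over R1 (adjusted p = 0.000435 from limma) and by 0.63 ± 0.07 in R2 over R1 (adjusted p = 0.0164, 0.0549 with the date as a block). Between R3 and R2 the difference was -0.04 (95% interval -0.19 to 0.12). *Top2a*, which encodes the topoisomerase that untangles sister chromatids, was at 10.90, 11.22 and 11.34 in R1, 11.67, 11.70 and 11.65 in R2, and 11.73, 11.75 and 11.82 in R3. It rose by 0.61 ± 0.10 in R3 over R1 (adjusted p = 0.00392), and the 0.52 ± 0.10 of R2 over R1 was not called (adjusted p = 0.0882). A dimmer probe set of *Top2a* differed by 0.77 in R3 and 0.83 in R2 over R1. Neither difference was called when this probe set stood for the gene (adjusted p = 0.163 from limma for R3 over R1). The condensin subunits *Ncapg* and *Ncaph*, which compact chromosomes, rose by 0.59 and 0.43 in R3 over R1, and *Ncapg2* had a difference of 0.64 with an adjusted p of 0.0503 (0.0289 with the date as a block).

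The cytokinesis genes part the daughter cells, and all 5 rose in R3 over R1. *Ect2*, the exchange factor that sets the cleavage furrow, was at 8.31, 8.78 and 8.97 in R1, 9.33, 9.50 and 9.39 in R2, and 9.75, 9.60 and 9.77 in R3. Its populations did not overlap, with 1.02 ± 0.15 for R3 over R1 (adjusted p = 0.00161 from limma), and 0.72 ± 0.15 for R2 over R1 and 0.30 ± 0.15 for R3 over R2 that were not called (adjusted p = 0.0969 and 0.319). *Prc1* (probe set 10554445), which bundles the central spindle, was at 9.41, 9.54 and 9.77 in R1, 10.37, 10.47 and 10.42 in R2, and 10.39, 10.36 and 10.37 in R3. R2 and R3 overlapped, and the rises over R1 were 0.80 ± 0.09 for R3 and 0.85 ± 0.09 for R2 (adjusted p = 0.000353 and 0.0164). *Cep55*, which recruits the machinery of abscission, was at 8.55, 8.40 and 9.02 in R1, 9.23, 9.38 and 9.23 in R2, and 9.48, 9.44 and 9.50 in R3, a rise of 0.81 ± 0.14 in R3 over R1 (adjusted p = 0.00411). *Racgap1*, the partner of KIF23, and *Anln*, an actin-binding scaffold of the furrow, rose by 0.64 and 0.55 in R3 over R1.

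**Figure D5:**
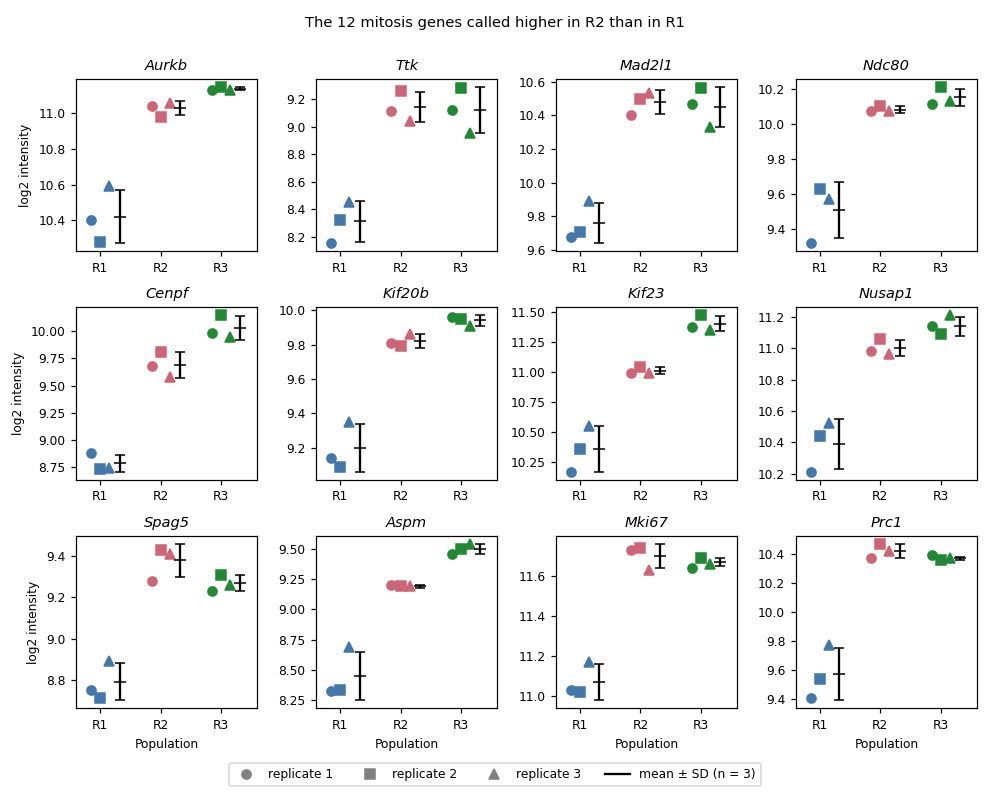
Log2 intensity of the 12 mitosis genes called higher in R2 than in R1, on each array (symbols by replicate) with the mean ± SD (n = 3) beside them; each panel has its own axis, which does not start at 0. In all 12 the R1 arrays lie below every R2 and R3 array, and in *Aurkb*, *Ndc80*, *Cenpf*, *Kif20b*, *Kif23*, *Nusap1* and *Aspm* every R3 array also lies above every R2 array.

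Other genes of the same pathway were taken from separate lists. Of 78 measured mitosis genes outside the 50, 53 rose (67.9%) and 0 fell in R3 over R1, with a median log2 fold change of 0.60. Over all genes, 6.49% rose and 7.02% fell. In R2 over R1, 9 were higher (11.5%, against 0.211% of all genes, median 0.52), or 4 with the date as a block. *Nek2*, a kinase that separates centrosomes, rose by 1.32 in R3 over R1 (adjusted p = 0.00190 from limma), and *Cit*, a kinase of the midbody, by 0.80 in R2 over R1 (adjusted p = 0.0153, 0.0418 with the date as a block). Between R3 and R2, 1 of the 78 was called, *Iqgap3*, a scaffold protein (0.34, adjusted p = 0.0428, 0.0869 with the date as a block), and the median was 0.04. This share of 1.28% higher was below the 4.85% of all genes. *Pttg1*, which encodes securin, had its highest mean in R1, with -0.28 for R3 and -0.29 for R2 over R1, and was not called (adjusted p = 0.213 and 0.468).

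Most genes of S phase, which copy the DNA, also had lower means in R1 than in R3 and in R2, with smaller medians. Of 40, 6 rose (15%) and 0 fell in R3 over R1, against 6.49% and 7.02% of all genes. Their median there was 0.17, with 29 positive and 11 negative. In R2 over R1, 0 were called, against 0.211% of all genes higher and 0.181% lower. There the median was 0.27, 35 were positive and 5 negative, and 11 had an unadjusted p under 0.05, as did 10.7% of all genes. In R3 over R2, 1 was higher and 1 lower (2.5% each, against 4.85% and 4.69% of all genes), with a median of -0.05. With the date as a block, 3 were lower (*Ccne2*, *Tyms* and *Rfc4*, adjusted p = 0.0423, 0.0224 and 0.0221 from limma). *Pold1*, the catalytic subunit of DNA polymerase delta, was higher in R3 than in R2 and R1, by 0.69 and 1.05 (adjusted p = 0.00358 and 0.000221 from limma), and *Ccne2*, a cyclin of S phase entry, was lower in R3 than in R2 (-0.51, adjusted p = 0.0485). The difference between the S phase and mitosis lists was not tested.

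Of 24 regulators that act on the promoters of mitosis genes, 7 rose (29.2%) and 1 fell (4.17%) in R3 over R1. Over all genes the shares were 6.49% and 7.02%. With the date as a block, 5 rose and 1 fell. In R3 over R2, 3 were higher (12.5%) and 1 lower (4.17%), against 4.85% and 4.69% of all genes. In R2 over R1, 0 were higher and 1 lower (4.17%), against 0.211% and 0.181% of all genes. *Foxm1*, the activator of late cell cycle genes, was at 9.63, 9.73 and 10.07 in R1, 10.28, 10.13 and 10.28 in R2, and 10.49, 10.59 and 10.60 in R3. It rose by 0.75 in R3 over R1 (adjusted p = 0.00178 from limma), and R2 lay between the other populations without a call (adjusted p = 0.180 against R1). *Nfya*, a subunit of NF-Y, rose by 0.54 in R3 over R1 (adjusted p = 0.00446). The other subunits, *Nfyb* and *Nfyc*, had differences of 0.12 and 0.02 that were not called (adjusted p = 0.573 and 0.918), nor was the 0.40 of *Mybl2*, which encodes B-MYB (adjusted p = 0.0607). *E2f2*, an activator of the E2F family, went the other way, at 9.60, 9.62 and 9.62 in R1, 9.26, 9.20 and 9.18 in R2, and 8.03, 7.90 and 8.05 in R3. It fell by 1.62 in R3 under R1 and by 1.22 under R2 (adjusted p = 6.51e-07 and 5.21e-06), and by 0.40 in R2 under R1 (adjusted p = 0.0469, 0.0935 with the date as a block).

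Markers of other cells that the gate could hold moved with the populations as well, and their part in the differences of the mitosis genes was not tested. Of 10 stem and progenitor genes, 9 were measured and 2, 3 and 5 lay above the array median in R1, R2 and R3. Their summed linear intensity was 905, 1073 and 861 on R1 replicates 1, 2 and 3, from 1106 to 1651 in R2 and from 1437 to 1702 in R3. The ranges of R2 and R3 overlapped, and in R1 and R2 most genes of this sum lay below the array median. In R3 over R1, 4 of the 9 were called higher (44.4%, against 6.49% of all genes), with a median log2 fold change of 0.79. In R3 over R2, 2 were higher (22.2%, against 4.85%). In R2 over R1, 1 was higher (11.1%, against 0.211%), or 0 with the date as a block. In each comparison 0 were called lower. *Kit*, whose protein the gate excludes, had means of 5.45, 5.70 and 6.27 in R1, R2 and R3, beside array medians of all genes from 6.16 to 6.26. Of 10 neutrophil precursor genes, 7, 8 and 8 lay above the median, and their sum was 11904, 12735 and 17661 on R1 replicates 1, 2 and 3, from 18048 to 23784 in R2 and from 1694 to 11044 in R3. This sum was higher in R2 than in R1 and lower in R3 than in R1. Its genes did not all move alike. In R3 over R1, 3 were positive and 7 negative, with 0 called higher and 5 lower (50%, against 7.02% of all genes). In R2 over R1, 9 were positive and 1 negative, and 0 were called. The sum of 10 DC precursor genes ran from 2376 to 3216, 3819 to 4091 and 21646 to 23305 in R1, R2 and R3, and that of 9 measured monocyte genes from 34352 to 36108, 30350 to 33456 and 15519 to 19286. Of 7 measured erythroid genes 1 lay above the median, *Tfrc*, the transferrin receptor, and their sum ran from 373 to 393 in R1, 464 to 490 in R2 and 1281 to 1402 in R3. The sums of T cell, natural killer cell and B cell genes reached at most 601, 744 and 639 in R1 and R2, and ran from 1286 to 1443, 1334 to 1950 and 808 to 844 in R3. Between R3 and R2, 1 of 8 measured T cell genes (12.5%), *Thy1*, and 1 of 9 measured B cell genes (11.1%), *Blnk*, were called higher. Of 10 natural killer cell genes, *Klrd1* and *Klrk1* were higher (20%) and *Nkg7* was lower (10%). Over all genes, 4.85% were called higher and 4.69% lower. The T cell, B cell and natural killer cell lists had median log2 fold changes of 0.01, 0.05 and 0.05, and largest ones of 2.40, 1.73 and 4.03. The sum of megakaryocyte genes ran from 644 to 975, 526 to 2280 and 495 to 530.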

How the data were processed

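The authors amplified 1 ng of RNA from each sample of sorted R1, R2 and R3 cells (NuGEN Ovation Pico WTA), biotinylated the cDNA and read it on whole-transcript Mouse Gene arrays of Affymetrix. The authors deposited linear intensities, 1 for each of 34760 probe sets on each array. Their background correction, summarization and normalization are not stated in the labels or methods. The medians of the 9 columns ran from 58.0 to 64.7, and the number of arrays limits the precision. All columns of values were used.

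The platform annotation gives 1 symbol to 21640 probe sets, several to 1321 and none to 11799. By Entrez ID, 21553 of those with 1 symbol matched the RefSeq gene table of GRCm38.p6. The probe set of highest mean log2 intensity stood for each of 19937 genes, 954 of which had more than 1. No filter on dim genes was applied.

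The limma package (3.58.1, in R 4.3.3) was run on log2 intensities, the 3 populations in 1 model over 9 arrays and 6 residual degrees of freedom. Benjamini-Hochberg adjustment covered all 19937 genes of a comparison, with calls made at an adjusted p under 0.05. The code was tested on simulated data. Dates were compared in a model of population and date with 4 residual degrees of freedom. The titles of the arrays give the pairing, as arrays of 1 date share a replicate number. Deviations from the group means correlated between arrays of 1 date, over all genes, by 0.11, 0.07 and 0.15 for R3 and R2, -0.02, 0.02 and 0.11 for R3 and R1, and 0.00, 0.15 and 0.10 for R2 and R1 (replicates 1, 2 and 3). Promoter windows were those of a RefSeq table for GRCm38.p6.

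Values on every array are given for the 10 called members of largest fold change per comparison whose sign was equal on all 3 dates, and for *Mki67*, *Top2a*, *Ccna2*, *Cdk1*, *Plk1*, *Aurka*, *Aurkb*, *Cdc20*, *Birc5*, *Bub1b*, *Ndc80*, *Kif11*, *Tpx2* and *Prc1*. Of each pathway list at most 6 called genes per comparison may be named; *Pttg1*, *Nfyb*, *Nfyc*, *Mybl2*, *Tyms*, *Rfc4* and, among the marker lists, *Kit*, *Tfrc*, *Thy1*, *Blnk*, *Klrd1*, *Klrk1* and *Nkg7* were named beyond this rule after their values were seen. The members, the pathway and marker lists and the tests were chosen with earlier results of these data known. The alternatives were the date as a fixed or random block, 2 other scalings, the unpaired test of the study's methods, a fit of 2 populations alone, array weights, another variance prior, a filter on dim genes, other probe sets per gene, and leaving out each array or date.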

Additional observations from a re-analysis of the deposited data

How the results depend on the processing

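All 49 differences from R1 stayed positive for R3 and for R2 under the 24 alternatives, and 34 to 42 were positive for R3 over R2. The median log2 fold changes moved by less than the spread between replicates, from 0.48 to 0.71 for R3 over R1, 0.40 to 0.67 for R2 over R1 and 0.06 to 0.11 for R3 over R2. The other scalings moved the median of all genes by at most 0.03. The number of calls depended on the setting. With the date as a replicate block, 2 of the 12 calls of R2 over R1 were made, and counts of the other comparisons stayed within 1.5 times. The methods' unpaired test gave, after adjustment, 9 members higher in R3 than in R1, 0 in R2 than in R1, and 4 higher and 1 lower in R3 than in R2, and without adjustment 29 for R2 over R1 and 14 higher and 2 lower for R3 over R2. With only the 2 populations compared in the fit, 21 were higher in R3 than in R1, 0 in R2 than in R1 and 1 lower in R3 than in R2. Array weights gave 22 for R2 over R1 and 4 for R3 over R2, and quantile normalization gave 21 for R2 over R1. Leaving out 1 array or the arrays of 1 date gave 13 to 48 members higher in R3 than in R1, 0 to 26 in R2 than in R1 and 0 to 3 in R3 than in R2. A fit without an array has fewer residual degrees of freedom; the cause of the other changes was not tested. No probe set was compared with a background signal, since the values used here hold none.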
